A study of Homo sapiens with 6 samples.

Results

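Genes for the voltage-gated calcium channels, the voltage-gated sodium channels, the HCN channels, the TRPC, TRPM, TRPV and TRPA channels, and the ryanodine and inositol trisphosphate receptors were examined in SH-SY5Y cells depleted of PSF. They were taken by symbol from the protein-coding genes of the expression table. This gave 49 of its 21301 genes. RefSeq lists 71 human protein-coding genes with such symbols, and the other 22 were not analysed here. SH-SY5Y is a human neuroblastoma cell line with neuronal features. The treated group received siPSF, an siRNA against PSF, at 10 nM, and the control group received siControl, a control siRNA whose dose was not given separately, with 72 h of treatment in both. Each group held 3 libraries, described by the study as biological triplicates. PSF is an RNA-binding protein that acts in transcription and splicing and is encoded by SFPQ. All cells came from 1 line and 1 siRNA against PSF, so any effect particular to either cannot be told apart from PSF depletion.

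Voltage-gated sodium and calcium channels open when the membrane depolarizes. The sodium channels carry the rising phase of the action potential, and the calcium channels couple electrical activity to transmitter release, secretion and gene expression. Each is built on a large pore-forming subunit that is joined by smaller subunits, which set its gating and its delivery to the membrane. HCN channels open on hyperpolarization and help to set the resting potential and rhythmic firing. TRP channels are cation channels opened by chemicals, temperature, osmotic change or receptor signalling. Ryanodine receptors and inositol trisphosphate receptors release calcium from the endoplasmic reticulum.

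The libraries held between 101540520 and 132420931 counts over the genes of the table. Levels are given as CPM, counts scaled to library size after TMM normalization (counts per 1e+06), and changes as log2 fold changes of siPSF over siControl with their standard error (SE). Differences were tested in edgeR by quasi-likelihood for 19694 genes, the Benjamini-Hochberg adjustment ran over all of them, and a gene was called lower or higher at an adjusted p below 0.05. SFPQ itself measured 372, 356 and 401 CPM under siControl and 209, 193 and 165 CPM under siPSF, a log2 fold change of -0.99 (SE 0.10, edgeR adjusted p = 9.5e-05). The third siPSF library deviated most from its group, with a root-mean-square deviation of 0.179 on the log2 scale against 0.104 to 0.142 in the other libraries. Markers of adrenergic neuroblastoma cells summed to between 4893 and 5527 CPM in siControl and between 4366 and 4969 CPM in siPSF. Among the 10 listed, DBH (log2 fold change -0.68) and TH (-1.20) were called lower and GATA3 (0.30) was called higher. DBH had a mean of 1738 CPM in siControl and 1085 CPM in siPSF. TH was rare, with a mean of 0.741 CPM in siControl and 0.320 CPM in siPSF and a smallest count of 17 in a library. Pan-neuronal markers summed to between 910 and 1045 CPM in siControl and between 965 and 1070 CPM in siPSF, with 1 of 6 called lower. Mesenchymal neuroblastoma markers, with 8 of 10 measured, summed to between 289 and 311 CPM in siControl and between 255 and 277 CPM in siPSF. TWIST1 (mean 204 CPM in siControl) and FN1 (78.7 CPM in siControl, the 1 called lower) held most of this sum. YAP1 (0.451 CPM), WWTR1 (0.767 CPM) and CD44 (0.765 CPM) were rare in siControl, and PRRX1 and MEOX1 were not measured. Of the listed glial, muscle and leukocyte markers, 2 of 6, 2 of 6 and 2 of 4 were measured, and each of these sums was below 5 CPM in every library, with none of these genes called. The part of these marker differences in the channel results was not tested. In RNA from whole cultures, fewer cells of a kind and less RNA per cell cannot be told apart.

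Among the 49 channel genes, all of which passed the filter on low counts, 11 were lower in siPSF, 3 were higher and 35 passed no test in either direction. Over all genes tested, 8.27% were lower and 6.65% were higher. The 11 lower genes, 22.4% of the channel genes, included CACNA1C, CACNG1, CACNG4, CACNG5, SCN8A, SCN11A, TRPA1, RYR2, RYR3 and ITPR2. The 3 higher genes were CACNG8, SCN2B and SCN4B. The median log2 fold change of the channel genes was -0.22, beside 0.01 for all genes tested. Against the siControl mean, the channel median was -0.23, -0.16 and -0.26 on the log2 scale in the 3 siPSF libraries. For 23 of the 49 genes the libraries of the 2 groups did not overlap, beside 34.4% of all genes tested, in either direction. Of these 23, 20 were lower in siPSF, but all genes tested were not split by direction in this way. Of the 14 called genes, 7 kept the call whichever library was left out, namely CACNA1C, CACNG4, CACNG5, SCN11A, SCN2B, RYR2 and ITPR2. The number of lower genes was 7 without the third siControl library. The number of higher genes was 1 without the second siControl, the first siPSF or the second siPSF library.

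**Figure D1:**
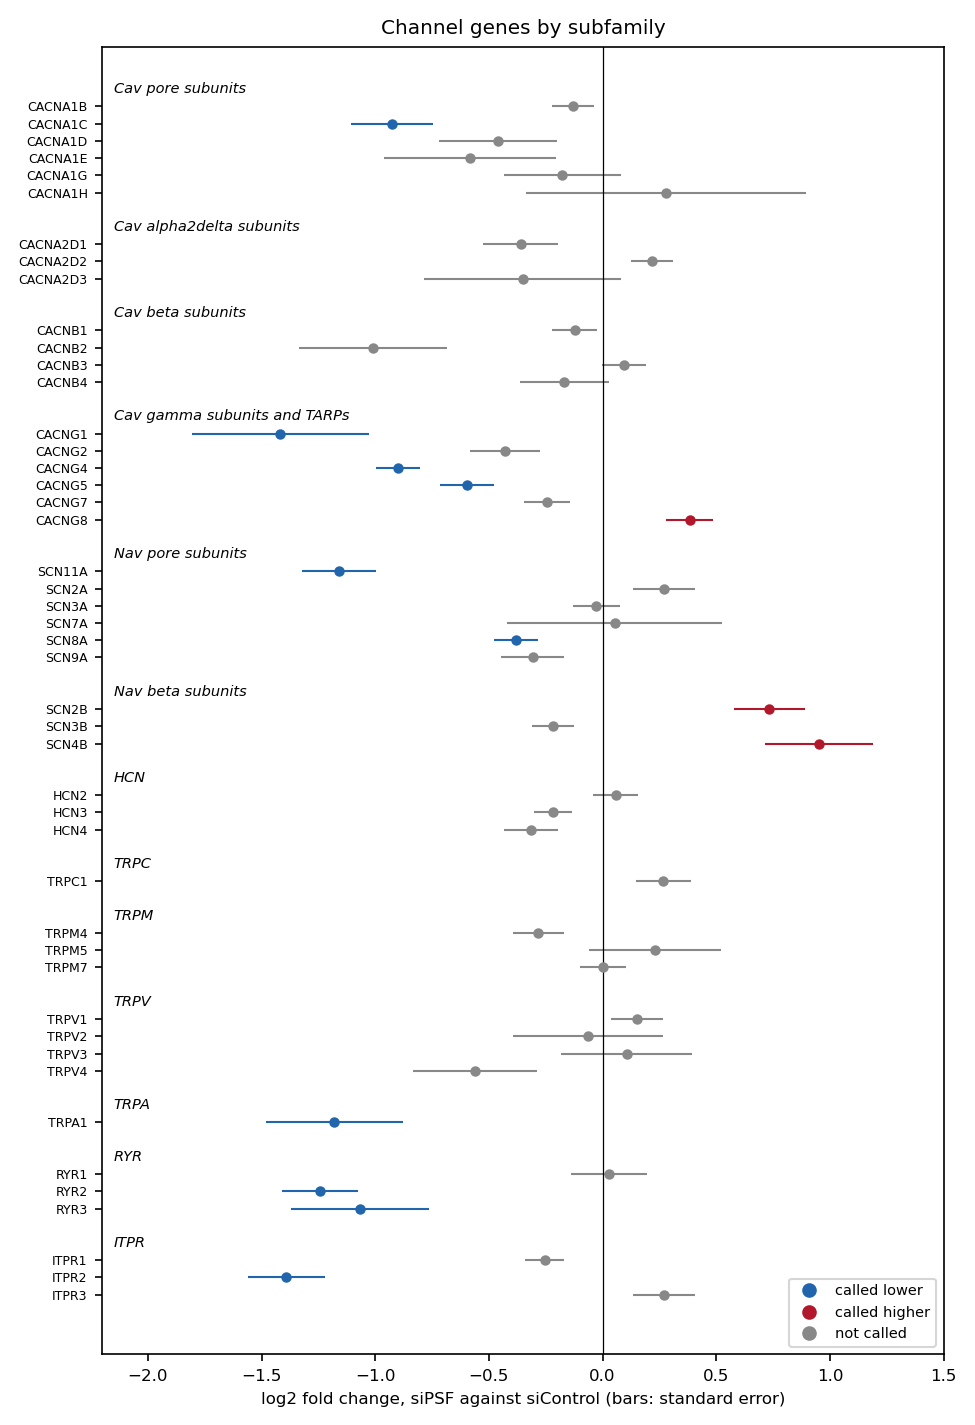
Log2 fold change of siPSF over siControl (horizontal axis) for 46 of the 49 channel genes, grouped by subfamily, with bars of 1 SE and colours for genes called lower, higher or neither. The called genes lie between -1.42 for CACNG1 and 0.95 for SCN4B, and the higher calls are in the TARP and sodium channel beta groups.

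Between genes, levels were compared as FPKM, the authors' value per transcript length. The most abundant channel transcript was CACNG4, with a mean of 144 FPKM in siControl and 73.0 FPKM in siPSF. It was followed by CACNG7 at 29.3 FPKM in siControl and 23.5 FPKM in siPSF. ITPR1 at 20.7 FPKM and HCN3 at 20.3 FPKM in siControl came next and were not distinct from each other beyond the spread of their libraries. CACNB3 and CACNA2D2 were the other genes with a mean of at least 10 FPKM over the 6 libraries. A mean of at least 1 FPKM was reached by 24 of the 49 genes, and 17 were under 0.5 FPKM, among them 4 of the called genes (CACNG1, TRPA1, RYR2 and RYR3).

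**Figure D2:**
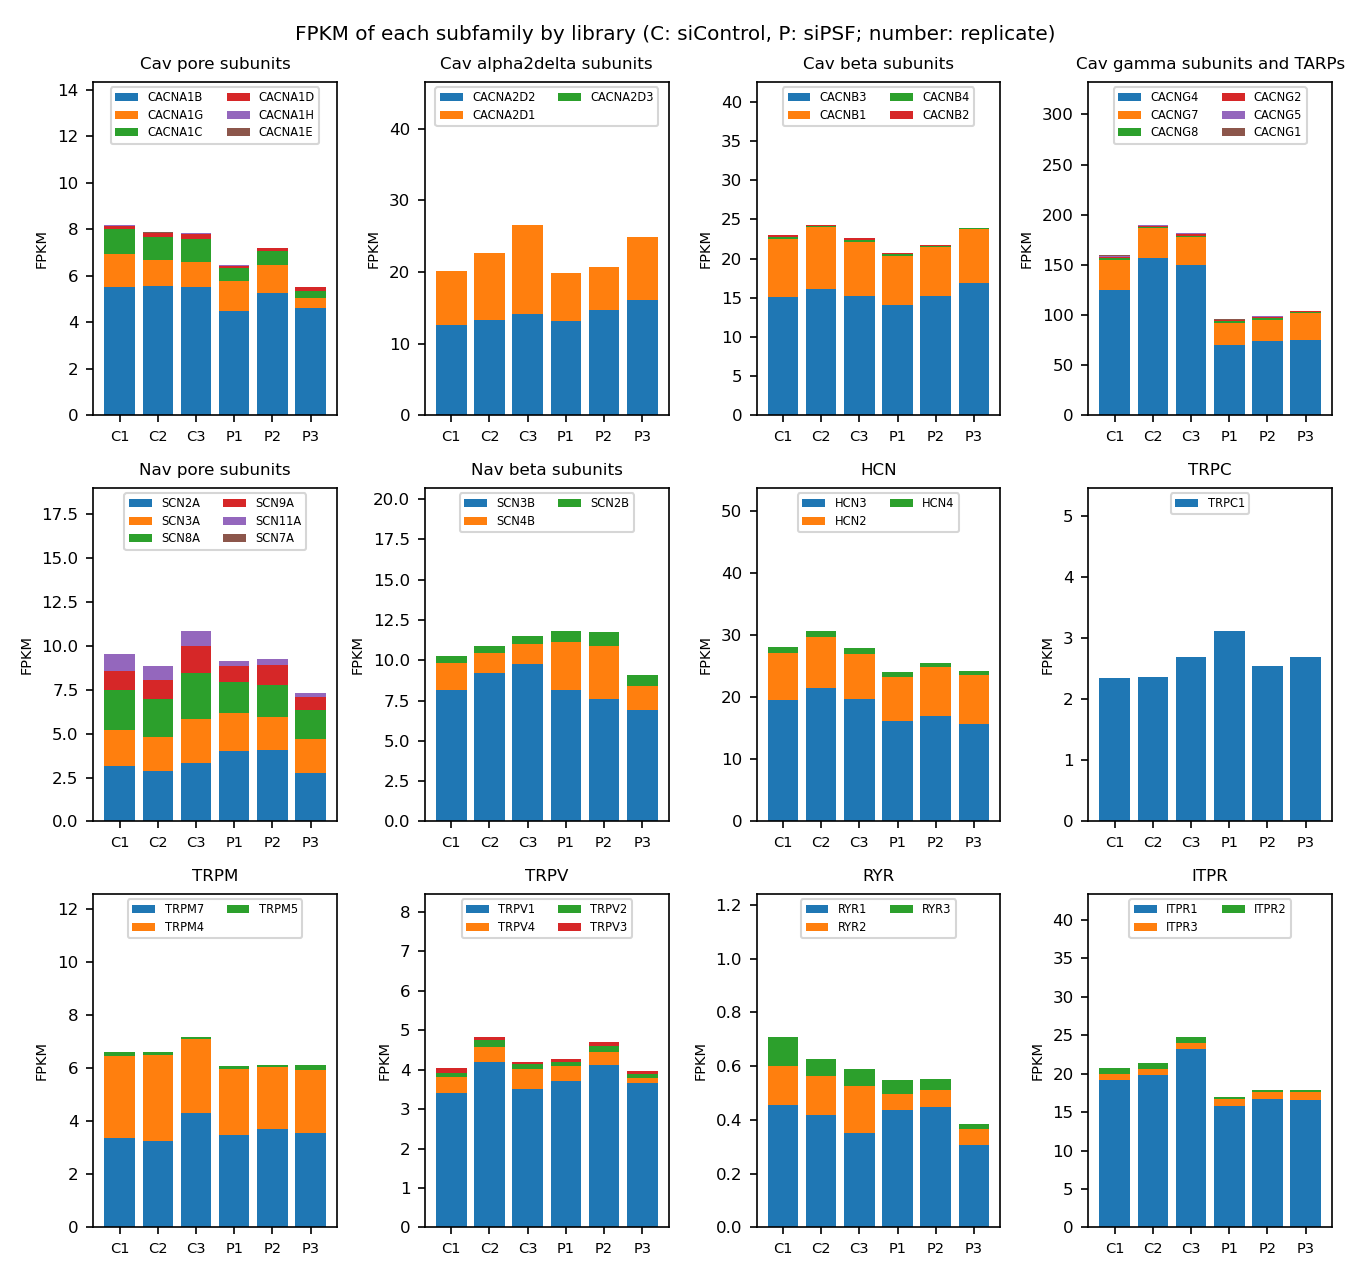
FPKM of the channel genes described by name, in each library (C1 to C3, siControl; P1 to P3, siPSF), one panel per subfamily, stacked by gene from 0. Each panel has its own vertical scale. The CACNG panel holds the highest sums, at 160 to 190 FPKM in siControl and 95.7 to 105 FPKM in siPSF, and CACNG4 makes up most of them. TRPA, with a single low gene, is not drawn.

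Of the 6 calcium channel pore subunits, 1 was lower and none was higher. CACNA1C encodes the pore of an L-type channel and lies on chromosome 12 (GRCh38, chr12:1970780-2697950). It measured 15.9, 14.9 and 14.5 CPM in siControl and 9.08, 9.46 and 5.30 CPM in siPSF. Every siPSF library was below every siControl library, and the third siPSF library was the lowest. Its log2 fold change was -0.92 (SE 0.18, edgeR adjusted p = 0.0053), so that the siPSF mean was 52.7% of the siControl mean. CACNA1B, the N-type pore subunit that serves transmitter release, held most of the FPKM of the group, 69.5% in siControl and 74.8% in siPSF, while the share of CACNA1C was 13.0% in siControl and 7.88% in siPSF. CACNA1B measured 58.7, 59.4 and 56.5 CPM in siControl and 49.5, 58.7 and 51.3 CPM in siPSF, and the groups overlapped (log2 fold change -0.13, SE 0.09, edgeR adjusted p = 0.37). The low-voltage-activated T-type gene CACNA1G ran from 9.45 to 12.6 CPM in siControl, and 2 siPSF libraries lay within that range while the third was at 4.87 CPM. The L-type gene CACNA1D, the R-type gene CACNA1E and the T-type gene CACNA1H were not called, at log2 fold changes of -0.46, -0.58 and 0.28.

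Of the genes tested, 2 overlap CACNA1C. The decapping factor gene DCP1B, which overlaps it in part, was not called (log2 fold change 0.19, edgeR adjusted p = 0.18). The long non-coding RNA LOC107984131 inside it was higher, with 0.0922 CPM under siControl and 0.273 CPM under siPSF (log2 fold change 1.56, edgeR adjusted p = 0.017). The study and the labels name different library kits, of which only that of the labels marks strand. Whether reads were assigned by strand was not given in the sources used here. Reads of genes that share sequence on opposite strands may therefore not have been separated. Such a limit can bear on any of the 12 channel genes that overlap another gene of the table. Overlapping genes were also called at CACNA2D1, CACNB3, HCN2 and TRPV1, which were themselves not called.

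None of the alpha2delta or beta subunits, which bring calcium channel pores to the membrane and tune their gating, passed the test. CACNA2D1, a gene for a gabapentin-binding alpha2delta subunit, measured 60.2, 74.4 and 95.2 CPM in siControl and 54.4, 50.4 and 74.2 CPM in siPSF (log2 fold change -0.36, SE 0.17, edgeR adjusted p = 0.17). Its groups overlapped. CACNA2D2 measured 74.8, 80.6 and 79.3 CPM in siControl and 81.3, 90.5 and 101 CPM in siPSF. These groups did not overlap, but the difference missed the threshold (log2 fold change 0.22, SE 0.09, edgeR adjusted p = 0.14). The share of CACNA2D2 in the alpha2delta FPKM was 57.5% in siControl and 67.0% in siPSF. The third alpha2delta gene, CACNA2D3, stayed under 0.35 CPM in every library. Among the beta subunits, CACNB2 was nearest to a call, with 1.59, 1.31 and 1.33 CPM in siControl and 0.842, 0.947 and 0.304 CPM in siPSF (log2 fold change -1.01, SE 0.33, edgeR adjusted p = 0.056). CACNB3, the most abundant beta subunit here, had a log2 fold change of 0.10, CACNB1 of -0.12 and CACNB4 of -0.17, and none of them was called.

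The CACNG genes measured here encode the skeletal muscle calcium channel gamma subunit, CACNG1, and TARPs, which carry AMPA-type glutamate receptors to synapses and shape their currents. Of the 6 measured, 3 were lower, 1 was higher and 2 were not called. CACNG4, a TARP gene (chr17:66964707-67033398), measured 487, 613 and 561 CPM in siControl and 283, 301 and 306 CPM in siPSF. The siPSF libraries were close together and all far below siControl. The log2 fold change was -0.90 (SE 0.10, edgeR adjusted p = 1.6e-04), and it ranged from -0.99 to -0.83 when single libraries were left out. CACNG5, a TARP gene next to it (chr17:66835117-66894751), measured 7.78, 7.47 and 7.23 CPM in siControl and 4.76, 5.08 and 5.03 CPM in siPSF, again without overlap (log2 fold change -0.60, SE 0.12, edgeR adjusted p = 0.0059). CACNG1 (chr17:67044554-67056797) was rare, at 0.929, 0.442 and 0.413 CPM in siControl and 0.286, 0.142 and 0.233 CPM in siPSF. The groups did not overlap, and the first siControl library stood well above the other 2 (log2 fold change -1.42, SE 0.39, edgeR adjusted p = 0.029). Without that library the edgeR adjusted p of CACNG1 was 0.12, and without the second siPSF library it was 0.078.

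CACNG8, a TARP gene on chromosome 19 (chr19:53962937-53990215), was higher, with 12.0, 12.4 and 13.5 CPM in siControl and 16.4, 17.3 and 15.5 CPM in siPSF. The groups did not overlap (log2 fold change 0.38, SE 0.10, edgeR adjusted p = 0.028). With 1 library left out the call failed 4 of 6 times, and the edgeR adjusted p reached 0.12. It was also lost in all 4 limma fits on FPKM, with adjusted p of 0.16 to 0.37. CACNG7, the second most abundant TARP transcript, measured 83.2, 82.4 and 74.7 CPM in siControl and 62.4, 62.6 and 77.8 CPM in siPSF. The third siPSF library lay inside the siControl range (log2 fold change -0.24, SE 0.10, edgeR adjusted p = 0.13). CACNG2, which encodes stargazin, had a log2 fold change of -0.43 (SE 0.15, edgeR adjusted p = 0.081). In FPKM, CACNG4 made up 81.2% of the group in siControl and 73.2% in siPSF, and CACNG7 made up 16.5% in siControl and 23.5% in siPSF.

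The 3 lower CACNG genes are neighbours on the plus strand of chromosome 17. CACNG5 ends 70.0 kb before CACNG4, which ends 11.2 kb before CACNG1. The gene before them on the same strand, PRKCA, which encodes protein kinase C alpha and ends 24.4 kb before CACNG5, was lower too, with 500.1 CPM under siControl and 196 CPM under siPSF (log2 fold change -1.35, SE 0.10, edgeR adjusted p = 2.4e-05). The gene after them on the minus strand, the helicase gene HELZ, was not called (log2 fold change -0.25, SE 0.09, edgeR adjusted p = 0.084). These neighbours were looked up after the values of the channel genes had been seen, so they are descriptions. PRKCA spans more than 400 kb (chr17:66302613-66810743), and 53.8% of protein-coding genes of at least 400 kb were lower. The part of gene length in this run was not tested.

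**Figure D3:**
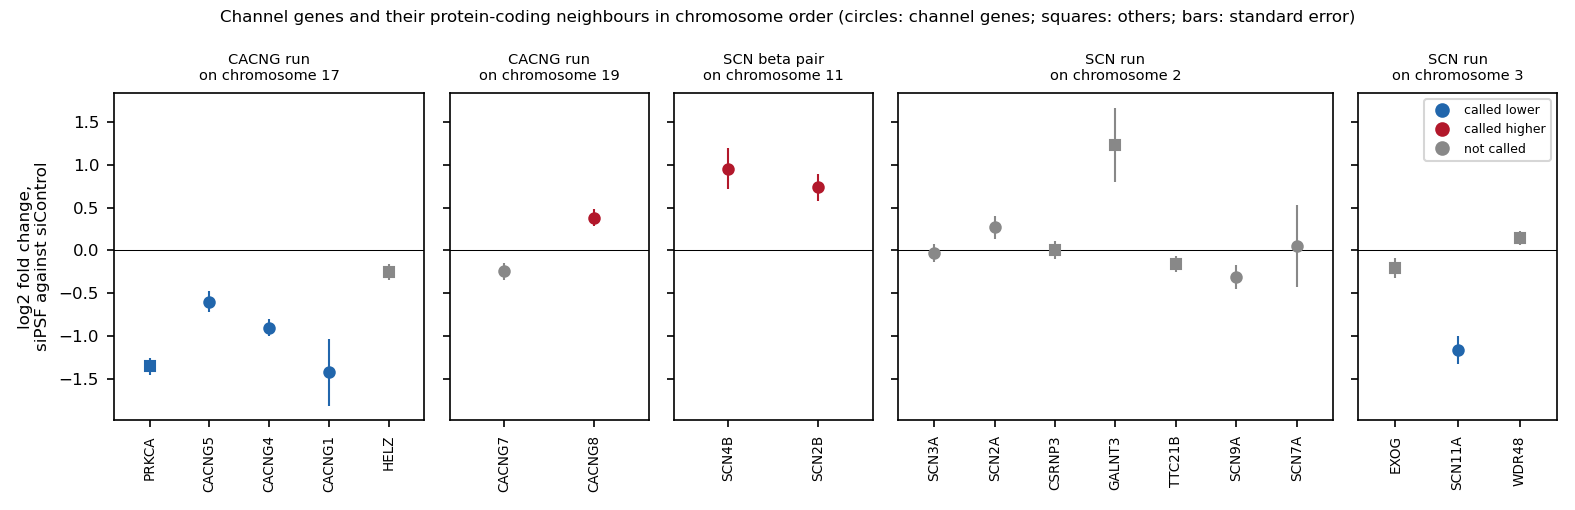
Log2 fold change of siPSF over siControl (vertical axis, bars of 1 SE) for runs of neighbouring channel genes and some of their flanks, in genomic order and equally spaced. PRKCA, CACNG5, CACNG4 and CACNG1 are all lower on chromosome 17, SCN4B and SCN2B are both higher on chromosome 11, and no sodium channel gene of the chromosome 2 run was called.

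Of the 7 sodium channel pore subunits, 3 were lower and none was higher. SCN11A encodes a tetrodotoxin-resistant channel of pain-sensing neurons (chr3:38845764-39051944). It measured 5.14, 5.08 and 3.91 CPM in siControl and 2.16, 2.30 and 1.86 CPM in siPSF, without overlap. Its log2 fold change was -1.16 (SE 0.16, edgeR adjusted p = 8.2e-04), which left 44.8% of the siControl mean. The gene WDR48 starts 0.1 kb beyond the 5′ end of SCN11A on the opposite strand and was not called (log2 fold change 0.15, SE 0.08, edgeR adjusted p = 0.25). SCN8A, the main channel of axon initial segments and nodes of Ranvier (chr12:51591233-51812864), measured 28.5, 27.3 and 31.9 CPM in siControl and 22.3, 23.6 and 21.5 CPM in siPSF. These groups did not overlap either (log2 fold change -0.38, SE 0.10, edgeR adjusted p = 0.022), and the edgeR adjusted p was 0.063 without the third siControl library and 0.074 without the first siPSF library.

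The other 4 pore subunits were not called. SCN2A, an axonal channel of central neurons, measured 29.7, 27.0 and 30.4 CPM in siControl and 39.2, 39.0 and 26.7 CPM in siPSF. The first 2 siPSF libraries were above every siControl library, and the third was below them all (log2 fold change 0.27, SE 0.14, edgeR adjusted p = 0.21). SCN9A, another channel of pain-sensing neurons, ran from 10.7 to 13.9 CPM in siControl and from 8.24 to 10.6 CPM in siPSF, just without overlap (log2 fold change -0.31, SE 0.14, edgeR adjusted p = 0.16). SCN3A, which is prominent in the developing brain, had a log2 fold change of -0.03 (SE 0.10, edgeR adjusted p = 0.89). The atypical channel SCN7A was rare, at no more than 0.21 CPM in any library. In FPKM, SCN2A made up 28.1% of the pore subunits in siControl and 37.9% in siPSF, SCN8A 21.4% in siControl and 18.1% in siPSF, and SCN11A 7.90% in siControl and 2.79% in siPSF. For SCN11A the FPKM value per count departed from the gene's own median by up to 31.2% in a library, so its share rests partly on how the authors assigned its transcripts.

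The sodium channel beta subunits are single-pass membrane proteins that modulate the pore and act in cell adhesion. Of the 4 measured, 2 were higher and none was lower. SCN2B (chr11:118162806-118176639) measured 2.47, 2.45 and 2.49 CPM in siControl and 3.78, 4.84 and 3.69 CPM in siPSF. All siPSF libraries were above the tight siControl group, with a log2 fold change of 0.73 (SE 0.16, edgeR adjusted p = 0.0084). In the 3 limma fits on filtered FPKM the log2 fold change was 0.29 to 0.55 on the log2(FPKM + pseudocount) scale and the call was lost (adjusted p of 0.050 to 0.075). SCN4B (chr11:118133377-118152823) measured 8.19, 6.14 and 5.93 CPM in siControl and 15.0, 16.6 and 7.57 CPM in siPSF. The groups overlapped, since the third siPSF library was below the first siControl library, and SCN4B was the only one of the 14 called genes to overlap (log2 fold change 0.95, SE 0.24, edgeR adjusted p = 0.019). Its call was lost without the second or the third siControl library and without the first or second siPSF library, with edgeR adjusted p up to 0.11. It was also lost in the DESeq2 Wald test (adjusted p = 0.055) and in all 4 limma fits on FPKM (adjusted p of 0.068 to 0.15). SCN3B, the most abundant beta subunit, measured 51.7, 58.0 and 60.5 CPM in siControl and 49.2, 51.2 and 45.7 CPM in siPSF (log2 fold change -0.22, SE 0.09, edgeR adjusted p = 0.13). SCN4B and SCN2B lie 10.0 kb apart on the minus strand of chromosome 11.

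The 200 bases before the annotated start are given for the called genes with a RefSeq promoter that lies just outside the gene and in no other RefSeq gene, to set the 5′ ends of lower and higher genes side by side. The sequences are from RefSeq (GRCh38.p14), written 5′ to 3′ on the gene's strand. Capitals mark GGGCGG, the core of the GC box, on either strand. For the sodium channel genes these are chr12:51591033-51591232 on the plus strand for SCN8A, which was lower, and chr11:118176640-118176839 on the minus strand for SCN2B, which was higher.
SCN8A: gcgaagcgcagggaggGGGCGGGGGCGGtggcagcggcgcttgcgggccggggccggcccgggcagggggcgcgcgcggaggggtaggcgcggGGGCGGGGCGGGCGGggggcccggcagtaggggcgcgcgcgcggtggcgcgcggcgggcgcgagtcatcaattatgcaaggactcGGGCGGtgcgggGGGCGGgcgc
SCN2B: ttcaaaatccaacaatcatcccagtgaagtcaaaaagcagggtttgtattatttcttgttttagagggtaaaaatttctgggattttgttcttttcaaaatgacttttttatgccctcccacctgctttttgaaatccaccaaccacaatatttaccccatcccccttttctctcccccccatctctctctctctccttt
The SCN8A window is rich in G and C, with 85.6% G and C and 45 CpG dinucleotides over 250 bases before the start. The SCN2B window has 38.0% G and C and 0 CpG dinucleotides, and GGGCGG does not occur in it. The median was 67.6% G and C over the 31 channel genes with a promoter at hand, and 58.0% over all promoters. These windows are single examples, and no contrast between lower and higher genes is drawn from them.

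The 3 ryanodine receptor genes and the 3 inositol trisphosphate receptor genes were all measured, with 3 of the 6 called lower and none higher. RYR2, the ryanodine receptor of heart and brain (chr1:237042184-237833988), measured 2.59, 2.63 and 2.99 CPM in siControl and 1.12, 1.21 and 1.14 CPM in siPSF. The siPSF libraries were nearly equal, and all were far below siControl (log2 fold change -1.24, SE 0.17, edgeR adjusted p = 5.9e-04). RYR3, which is found in brain and other tissues (chr15:33310967-33866102), measured 2.16, 1.27 and 1.25 CPM in siControl and 0.968, 0.805 and 0.446 CPM in siPSF. The groups did not overlap (log2 fold change -1.07, SE 0.30, edgeR adjusted p = 0.034), but the call was lost without any 1 of the siControl libraries, with edgeR adjusted p of 0.059 to 0.12, and without the filter on low counts, with edgeR adjusted p of 0.064. RYR3 overlaps the more abundant apoptosis regulator gene AVEN in part, which measured 41.3 CPM in siControl and 35.9 CPM in siPSF and was not called (log2 fold change -0.20, edgeR adjusted p = 0.19). RYR1, the skeletal muscle receptor, measured 7.59, 6.98 and 5.64 CPM in siControl and 7.46, 7.81 and 5.32 CPM in siPSF. These values overlapped (log2 fold change 0.03, SE 0.17, edgeR adjusted p = 0.94), and RYR1 made up 63.6% of the ryanodine receptor FPKM in siControl and 79.9% in siPSF.

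ITPR2, an inositol trisphosphate receptor gene on chromosome 12 (chr12:26335352-26833194), measured 7.95, 9.47 and 11.4 CPM in siControl and 4.44, 3.29 and 3.26 CPM in siPSF. The groups did not overlap, and the siPSF mean was 38.1% of the siControl mean, the lowest such share of all 14 called genes except CACNG1 (log2 fold change -1.39, SE 0.17, edgeR adjusted p = 3.4e-04). ITPR1, the main neuronal receptor, measured 202, 210 and 237 CPM in siControl and 174, 186 and 185 CPM in siPSF. These groups did not overlap either, but the difference missed the threshold (log2 fold change -0.25, SE 0.09, edgeR adjusted p = 0.067). ITPR3 was not called, at 8.57, 8.29 and 6.41 CPM in siControl and 8.46, 9.58 and 10.0 CPM in siPSF (log2 fold change 0.27, SE 0.14, edgeR adjusted p = 0.21). In FPKM, ITPR1 made up 92.9% of the 3 receptors in siControl and 93.3% in siPSF, and ITPR2 made up 3.55% in siControl and 1.47% in siPSF.

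The promoters of the 2 lower ryanodine receptor genes are shown in the same form as those of SCN8A and SCN2B, at chr1:237041984-237042183 for RYR2 and chr15:33310767-33310966 for RYR3, both on the plus strand.
RYR2: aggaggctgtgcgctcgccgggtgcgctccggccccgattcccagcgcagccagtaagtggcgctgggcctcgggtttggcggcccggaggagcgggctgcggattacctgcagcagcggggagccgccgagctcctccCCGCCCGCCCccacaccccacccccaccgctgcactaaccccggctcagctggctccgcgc
RYR3: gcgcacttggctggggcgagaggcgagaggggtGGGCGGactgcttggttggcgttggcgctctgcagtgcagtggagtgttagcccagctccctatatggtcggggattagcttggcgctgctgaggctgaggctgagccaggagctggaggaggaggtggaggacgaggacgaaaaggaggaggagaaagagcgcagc
The windows of 250 bases have 75.2% G and C with 25 CpG dinucleotides in RYR2, and 66.8% G and C with 20 CpG dinucleotides in RYR3. The marked letters are 2 overlapping matches on the opposite strand in RYR2 and 1 match in RYR3. RefSeq promoters were at hand for 31 of the 49 channel genes, 5 of them lower and 2 higher. GGGCGG occurred on either strand in 5 of the 5 lower genes, 1 of the 2 higher genes and 17 of the 24 others, beside 42.6% of all 35116 promoters. CCAAT occurred in 0 of the 7 called genes and 5 of the 24 others, beside 32.0% of all promoters, and TATAAA in 0 of the 31, beside 10.7%. These are matches of letters only. Each channel gene entered with its most upstream promoter. The set of all promoters was not reduced in this way or limited to genes measured here, so the sets are not alike.

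**Figure D4:**
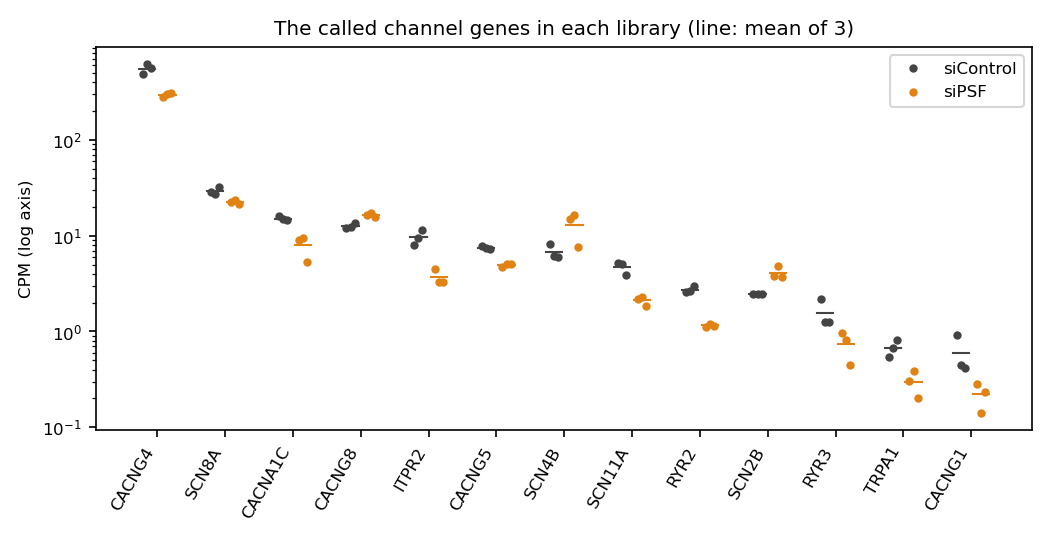
CPM of 13 of the 14 called channel genes in each library on a log axis, with siControl and siPSF libraries as points. The 2 groups are separate for all genes drawn but SCN4B, where the third siPSF library (7.57 CPM) lies below its first siControl library (8.19 CPM).

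None of the 3 HCN genes passed the test. HCN3, the most abundant of them, measured 79.2, 88.5 and 77.0 CPM in siControl and 69.4, 73.2 and 67.8 CPM in siPSF. HCN4, the slow-gating channel of the cardiac pacemaker, measured 6.93, 7.93 and 7.56 CPM in siControl and 6.25, 5.86 and 5.92 CPM in siPSF. In both genes the groups did not overlap, with log2 fold changes of -0.22 (SE 0.09, edgeR adjusted p = 0.11) and -0.31 (SE 0.12, edgeR adjusted p = 0.097). HCN2, a neuronal and cardiac channel, measured 28.3, 30.4 and 25.7 CPM in siControl and 27.0, 30.4 and 30.4 CPM in siPSF (log2 fold change 0.06, edgeR adjusted p = 0.75).

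Of the 10 TRP genes, 1 was lower and 9 were not called. TRPA1 is the receptor for mustard oil and other irritants in sensory neurons. It was rare, with 0.543, 0.675 and 0.818 CPM in siControl and 0.303, 0.388 and 0.203 CPM in siPSF, and the groups did not overlap. Its log2 fold change was -1.18 (SE 0.30, edgeR adjusted p = 0.022), and the edgeR adjusted p was 0.070 without the second siControl library, 0.091 without the third and 0.057 without the first siPSF library. TRPM7, a channel fused to a kinase that passes magnesium and calcium, measured 33.7, 34.5 and 40.7 CPM in siControl and 39.0, 35.2 and 35.0 CPM in siPSF (log2 fold change 0.0031, SE 0.10, edgeR adjusted p = 0.99). TRPV1, the capsaicin and heat receptor, measured 15.5, 19.1 and 15.5 CPM in siControl and 17.6, 20.1 and 18.1 CPM in siPSF (log2 fold change 0.15, SE 0.11, edgeR adjusted p = 0.41). In these 2 genes the groups overlapped. The receptor-operated channel TRPC1 had a log2 fold change of 0.27, the calcium-activated channels TRPM4 and TRPM5 of -0.28 and 0.23, and TRPV2, TRPV3 and TRPV4 of -0.06, 0.11 and -0.56. TRPV4, an osmosensitive channel, was lowest in the third siPSF library at 0.639 CPM, beside 1.42 CPM or more in the other 5 libraries.

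The called lower channel genes were long, with a median RefSeq span of 206 kb beside 77.6 kb for all 49. Of the 22 channel genes of at least 100 kb, 7 were lower (31.8%) and none was higher, with a median log2 fold change of -0.37. Of the 2770 protein-coding genes of that length, 25.1% were lower, and their median was -0.17. Of the 27 shorter channel genes, 4 were lower (14.8%) and 3 were higher, with a median of -0.06. Among the 11648 shorter protein-coding genes, 4.64% were lower, and the median was 0.05. At 400 kb or more, 4 of 8 channel genes and 53.8% of 370 protein-coding genes were lower, with medians of -0.97 and -0.58. The 4 were CACNA1C, RYR2, RYR3 and ITPR2, and the 4 not called were CACNA1E, CACNA2D1, CACNA2D3 and CACNB2. The part of gene length in the channel calls was not tested.

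**Figure D5:**
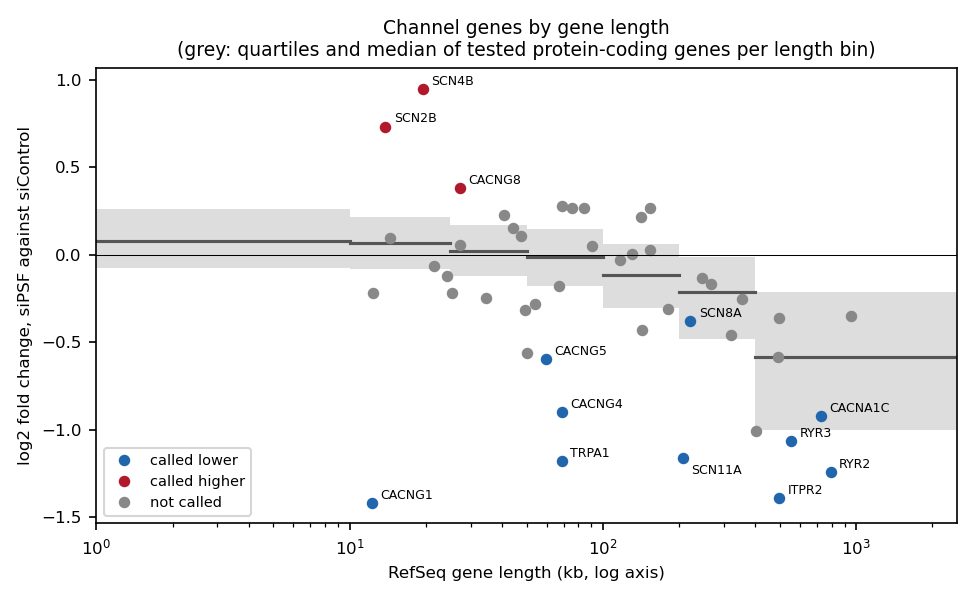
Log2 fold change of siPSF over siControl against RefSeq gene length (log axis, kb) for 46 of the 49 channel genes, with the median and quartiles of all protein-coding genes of each length class in grey. Over the tested protein-coding genes the median was 0.06 under 50 kb, a range drawn as several narrower grey classes, and -0.58 at 400 kb or more. The 3 higher channel genes are all under 50 kb.

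Genes that work with these channels were counted from 11 lists. Of 115 listed genes, 87 were tested, and 17 were lower and 9 higher, with a median log2 fold change of -0.07. Over all genes tested, 8.27% were lower and 6.65% were higher. Among the lower partners, ANK2 spans 678 kb, FGF14 692 kb and PEX5L 242 kb, while STAC3 spans 7.73 kb. Of all protein-coding genes of at least 100 kb, 25.1% were lower, and of the shorter ones 4.64%. The part of gene length in the partner calls was not tested. Of 7 sodium channel partners, 3 were lower and 1 was higher. ANK2, a member of the ankyrin family that anchors membrane channels to the cytoskeleton, was 129 ± 8.02 CPM under siControl and 51.6 ± 11.2 CPM under siPSF (SD, n = 3 each, log2 fold change -1.33, edgeR adjusted p = 1.2e-04). FGF14, an intracellular factor that binds the sodium channel tail, was 24.8 ± 1.02 CPM under siControl and 10.7 ± 1.53 CPM under siPSF (SD, n = 3 each, log2 fold change -1.21, edgeR adjusted p = 7.3e-05). NEDD4, a ubiquitin ligase, was also lower (log2 fold change -0.70, edgeR adjusted p = 0.0034). Of 2 HCN partners, PEX5L, which controls HCN trafficking in dendrites, was lower, at 29.1 ± 4.46 CPM under siControl and 10.1 ± 1.65 CPM under siPSF (SD, n = 3 each, log2 fold change -1.53, edgeR adjusted p = 6.0e-05). Thus ANK2, FGF14 and PEX5L each fell to under 50% of siControl without overlap.

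Of 9 calcium channel partners, 3 were lower and 1 was higher. The lower genes were STAC, an adaptor of L-type channels (log2 fold change -0.92, edgeR adjusted p = 0.0055), STAC3, its skeletal muscle relative (log2 fold change -0.97, edgeR adjusted p = 0.040), and CACHD1, an alpha2delta-like protein (log2 fold change -0.61, edgeR adjusted p = 0.0021). Among 14 calcium pumps and exchangers, 2 were lower and 4 were higher. The sodium-calcium exchangers differed in direction, with SLC8A3 lower at 52.8 ± 10.1 CPM under siControl and 18.4 ± 3.82 CPM under siPSF (SD, n = 3 each, log2 fold change -1.52, edgeR adjusted p = 1.6e-04), and SLC8A2 higher at 9.39 ± 0.597 and 15.2 ± 2.28 CPM (SD, n = 3 each, log2 fold change 0.69, edgeR adjusted p = 0.0038). ATP2C1, the calcium and manganese pump of the Golgi, was higher (log2 fold change 0.48, edgeR adjusted p = 0.0043).

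Of 7 store-operated entry genes, 2 were lower, the endoplasmic calcium sensor STIM1 (log2 fold change -0.49, edgeR adjusted p = 0.0057) and the regulator CRACR2A (log2 fold change -0.78, edgeR adjusted p = 0.015). Of 13 phospholipase C branch genes, which lie upstream of inositol trisphosphate, PLCB1 (log2 fold change -1.14, edgeR adjusted p = 5.9e-04) and PLCB4 (log2 fold change -0.40, edgeR adjusted p = 0.028) were lower. Of 13 partners of the release channels, the junctional protein gene JPH3 (log2 fold change -0.33, edgeR adjusted p = 0.024) and the receptor-associated IRAG1 (log2 fold change -0.44, edgeR adjusted p = 0.027) were lower. FKBP1A, which binds ryanodine receptors, was higher (log2 fold change 0.30, edgeR adjusted p = 0.031). Of 7 genes of the mitochondrial uniporter, the pore gene MCU was lower (log2 fold change -0.34, edgeR adjusted p = 0.048). Of 3 genes of the sodium leak channel complex, the pore gene NALCN was lower (log2 fold change -1.39, edgeR adjusted p = 0.019). Among 9 other cation channel genes none was lower, and the acid-sensing channel genes ASIC4 (log2 fold change 0.97, edgeR adjusted p = 6.4e-04) and ASIC3 (log2 fold change 0.57, edgeR adjusted p = 0.0092) were higher. None of 3 genes of other TRP branches was called.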

How the data were processed

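RNA-seq of SH-SY5Y cells was analysed in 6 libraries, grouped by the treatment given in the labels. The table the authors deposited holds raw counts and FPKM per gene and library, and the smallest count is 1. For the aligner, the study names TopHat and hg38, while the submitters' processing notes list Trimmomatic, HISAT2 2.1.0, StringTie 2.1.3b and GRCh38. The labels name a stranded TruSeq mRNA kit, while the study names a TruSeq RNA kit that does not mark strand, and strand use in counting was not given in the sources used here. Counts were tested in edgeR 4.0.16 (R 4.3.3) with filterByExpr, TMM scaling and the quasi-likelihood test, without a block, on 19694 genes. The SE is the log2 fold change divided by the square root of F. The deposited FPKM, the authors' length-scaled values, were used for levels between genes and in limma 3.58.1 on log2(FPKM + 0.5). DESeq2 1.42.0 served as an alternative. The scripts were tested on simulated data.

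Gene positions and promoters are from RefSeq (GRCh38.p14), strands from GENCODE. Channel genes were named where called and, per subfamily, for the highest FPKM and the 2 smallest p, and the other members were added with their values. A few genes are not reported here by name and count only in the totals. Called partners were named up to 3 per list by p. Beyond the lists, flanking and overlapping genes were named after their values were seen. The members and lists were chosen with earlier results of these data known. Replicates differed by more than sampling noise (chi-square per degree of freedom 22.6 to 66.3), and the common biological coefficient of variation was 12.6%.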

Additional observations from a re-analysis of the deposited data

How the results depend on the processing

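The direction of SFPQ and of all 14 called channel genes was kept under every alternative that gave a value, and SFPQ kept its call. The number of channel genes lower was 11 as reported and ranged from 7 to 14 when single libraries were left out. It was 6 with limma on FPKM without a filter and between 9 and 15 in the other alternatives. The number higher was 3 as reported and ranged from 1 to 4 with single libraries left out. It was 2 in the DESeq2 Wald test, 0 with limma on log2(FPKM + 0.5), 0 after rescaling, 0 with a pseudocount of 0.1 and 1 without a filter. The median log2 fold change of the channel genes, -0.22, ranged from -0.26 to -0.19 with single libraries left out. It was -0.33 on rescaled FPKM, -0.28 with the pseudocount of 0.1 and -0.12 without a filter. Rescaling moved the median of all genes in limma on FPKM to -0.16 from -0.06. Partner genes lower were 17, with 10 to 19 when single libraries were left out, 22 in the DESeq2 Wald test, 25 on rescaled FPKM, 11 with limma on FPKM without a filter and 14 to 18 otherwise. Partner genes higher were 9, with 4 to 8 when single libraries were left out, 11 in the DESeq2 Wald test, 5 with limma on FPKM, 2 after rescaling, 5 with the pseudocount of 0.1 and 2 without a filter. The cause was not tested. Among the lower genes named, limma on FPKM without a filter lost CACNG1, CACNG5, SCN8A, TRPA1 and RYR3 (adjusted p of 0.051 to 0.16). The filtered FPKM fits tested 32 of the 49 channel genes. Some genes not called in the main test passed in an alternative. In the DESeq2 Wald test these included ITPR1 (adjusted p = 0.046), CACNB2 (adjusted p = 0.011) and CACNG2 (adjusted p = 0.030). In limma on log2(FPKM + 0.5) they included ITPR1 (adjusted p = 0.033) and HCN3 (adjusted p = 0.024). Each of these genes also missed the threshold in other alternatives.

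Same-numbered libraries correlated at -0.02, 0.27 and 0.11 in their deviations, so the numbers were not taken as pairs. With a replicate block, 13 channel genes were lower and 3 higher, all 14 calls being kept. The counts of the rare genes (CACNG1, TRPA1, RYR3 and the partner NALCN) limit their precision. Of the 49 channel genes, 18 had FPKM per count over 5% from their median in a library.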
